A study of Homo sapiens with 27 samples.

Results

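The unplaced contig chrUn_GL000220v1 of the human genome build GRCh38 holds a stretch of the ribosomal DNA repeat, the tandem array from which ribosomal RNA is made. Every marked position that the deposited lists place on it was taken, at every score, and the contig was divided into 324 windows of 500 bp, of 6196993 such windows over all contigs in the lists. It carried 195400 of 149160252 marked positions (0.131%). The lists come from O6-MeG-seq, which captures DNA fragments that carry O6-methylguanine with an antibody and reads the lesion from where a polymerase stalls. All cell samples were LN-229, an established glioblastoma line, transfected with the repair gene MGMT or carrying the transfection control, called wild type (WT). They received 1 mM temozolomide (TMZ) or 1% DMSO as solvent, 1 time (1x) or 3 times at intervals of 4 h (3x). DNA was collected 24 h after the start of exposure, which gave 8 groups of 3 libraries. A further 3 libraries came from purified DNA given 1 mM TMZ in vitro (naked DNA), and the labels give WT cells as the source of replicates 1 and 2 and MGMT-transfected cells as that of replicate 3. No naked DNA without TMZ was analysed here. The design text calls the replicates biological.

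TMZ is an alkylating drug used against glioblastoma, and O6-methylguanine is the adduct most closely tied to its toxicity, because it pairs with thymine when DNA is copied. MGMT removes the methyl group directly and is used up in doing so. In the ribosomal repeat, RNA polymerase I transcribes a 45S precursor that is cut into the 18S, 5.8S and 28S RNAs of the ribosome, and long intergenic spacers separate one 45S unit from the next. The many copies are near identical, so a read from any of them can be placed on any other.

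In the gene table used here (RefSeq names), the 45S unit RNA45SN5 lies at positions 105424 to 118780 of the contig (13357 bp), with RNA18SN5 at 109078 to 110946, RNA5-8SN5 at 112024 to 112180 and RNA28SN5 at 113348 to 118417. The table gives the chromosome of these 4 genes as unknown. The bases of marked positions were therefore set against the chromosome 21 copies of the same genes. They were equal at 1111 of 1111 positions of the 18S gene and at 71 of 71 positions of the 5.8S gene (100%), against medians of 28.5% and 30.4% when the frame was shifted. The same comparison found a second, partial copy of the 45S unit 43972 bp further on, at positions 149396 to 161802, with equal bases at all 6901 positions compared. The lists thus cover, in order, a long region with few marks (positions 1 to 101500, the end of the last window with under 200 marked G in all libraries together, a limit chosen after the values were seen), 3923 bp of upstream spacer, the 45S unit, 30615 bp of downstream spacer and the partial copy. The 121 windows from position 101501 onward are called the ribosomal windows.

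The 5 short sequences that follow show the marks that most separated TMZ cells from solvent cells. They surround the 5 G positions with the largest gap between the number of TMZ cell libraries and the number of solvent libraries that listed them, which is how they were chosen. Each was listed in 12 of 12 TMZ cell libraries, 0 of 12 solvent libraries and 3 of 3 naked DNA libraries. They are written 5′ to 3′ on the strand of the mark, the marked G is the capital, and n is a position at which no library had a mark, since bases were read from the lists and not from a genome sequence.
28S gene of the first copy, chrUn_GL000220v1:115806-115836, plus strand: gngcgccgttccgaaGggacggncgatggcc
downstream spacer, chrUn_GL000220v1:124909-124939, plus strand: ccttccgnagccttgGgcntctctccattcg
downstream spacer, chrUn_GL000220v1:142379-142409, plus strand: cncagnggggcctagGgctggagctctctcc
downstream spacer, chrUn_GL000220v1:145629-145659, minus strand: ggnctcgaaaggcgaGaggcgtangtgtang
28S gene of the second copy, chrUn_GL000220v1:158560-158590, plus strand: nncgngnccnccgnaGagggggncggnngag
In each the marked G follows an A or a G. The first of them has a partner in the second copy, at 159793, that was listed in 11 TMZ, 0 solvent and 3 naked DNA libraries. The last has a partner in the first copy, at 114603, with the same counts. The sequence around 101674 in the upstream spacer equals that of the minus-strand position at every letter known in both. It was listed in 12 TMZ, 2 solvent and 3 naked DNA libraries.

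Longer stretches are shown for the windows that differed between groups or were densest, since their base composition differs. Each is the 100 bases of its window with the most known letters, on the plus strand. A capital G or C was marked in at least 3 of 12 TMZ cell libraries. A capital C is a marked G on the minus strand.
upstream spacer, window 102001 to 102500 (lower after 3 than after 1 TMZ exposure), chrUn_GL000220v1:102009-102108: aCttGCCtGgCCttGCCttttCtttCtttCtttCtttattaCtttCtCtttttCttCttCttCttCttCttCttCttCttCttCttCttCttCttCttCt
upstream spacer, window 104001 to 104500 (lower in naked DNA than in TMZ cells), chrUn_GL000220v1:104201-104300: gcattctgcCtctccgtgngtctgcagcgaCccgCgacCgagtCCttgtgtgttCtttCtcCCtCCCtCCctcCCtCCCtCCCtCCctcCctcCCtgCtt
downstream spacer, window 148001 to 148500 (lower in naked DNA than in TMZ cells), chrUn_GL000220v1:148043-148142: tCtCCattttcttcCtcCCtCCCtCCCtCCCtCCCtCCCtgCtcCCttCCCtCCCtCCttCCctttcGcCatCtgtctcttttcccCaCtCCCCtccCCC
downstream spacer, window 123501 to 124000 (densest in naked DNA), chrUn_GL000220v1:123527-123626: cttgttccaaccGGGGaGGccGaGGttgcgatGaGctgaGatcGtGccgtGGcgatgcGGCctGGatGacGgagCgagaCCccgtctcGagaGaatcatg
second 45S copy, window 150501 to 151000 (higher in TMZ than in solvent libraries), chrUn_GL000220v1:150540-150639: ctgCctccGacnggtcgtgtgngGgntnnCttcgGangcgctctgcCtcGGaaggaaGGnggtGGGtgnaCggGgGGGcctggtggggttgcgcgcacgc
In the spacer stretches at 102009, 104201 and 148043 nearly all capitals are C inside runs of C and T, that is, G of a purine-rich minus strand. In the stretches at 123527 and 150540 most are G of the plus strand.

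The lists held 2361 to 10542 contig positions per solvent library, 5116 to 10157 per TMZ cell library and 9240 to 19389 per naked DNA library. Each position and strand is listed once per library, so these are distinct positions and not read counts. On the contig 91.0% of the positions had a score of 1 and 94.7% a score of 0 or 1, a score that resembles an alignment quality, and 1.01% had 30 or more. Reads of different copies could not be told apart: per library, the second copy held 0.793 to 1.18 times as many marked G as the matching part of the first (median 0.979), and the contig's 45S unit held a median of 1.00, 1.03 and 1.05 times as many as the copies RNA45SN1, RNA45SN2 and RNA45SN3 of chromosome 21. Values of both copies are therefore not independent. From positions with bases other than G that libraries share on the autosomes, the libraries fell into 5 sets, which cross the groups. Set 1 held the replicate 1 libraries of 1x cells and of naked DNA. Set 2 held the 1x replicate 2 and 3x replicate 1 libraries, and set 3 the 1x replicate 3, the 3x replicate 2 and the 3x TMZ replicate 3 libraries. Set 4 was the 3x solvent replicate 3 libraries and set 5 was naked DNA replicates 2 and 3. Differences are given within sets 1, 2 and 3 where they hold both groups. For naked DNA only set 1 does, so those values rest on its replicate 1 alone. Set 1 holds 1x cells only and set 3 more 3x than 1x TMZ libraries. Within-set differences between TMZ and solvent thus also mix exposures.

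The share of marked positions that are G was higher after TMZ. In WT cells it was 26.0%, 24.7% and 23.1% in the 3 libraries with 1 exposure to solvent and 42.3%, 42.5% and 51.0% with 1 exposure to TMZ. With 3 exposures it was 25.3%, 25.3% and 23.1% under solvent and 58%, 61.0% and 59.2% under TMZ. In MGMT-transfected cells, 1 exposure gave 34.0%, 23.9% and 23.5% under solvent and 38.4%, 34.5% and 44.1% under TMZ, and 3 exposures gave 26.4%, 24.7% and 23.8% under solvent and 50.7%, 59.9% and 58.1% under TMZ. Naked DNA had 65.1%, 66.8% and 66.1%. The 12 TMZ cell libraries lay above the 12 solvent libraries with no overlap, naked DNA lay above all cell libraries, and the highest solvent library (MGMT 1x, replicate 1) came close to the lowest TMZ library (MGMT 1x, replicate 2).

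The mean was 49.99% ± 9.35 (SD, n = 12) in TMZ cells and 25.3% ± 2.96 (SD, n = 12) under solvent, a difference of 24.7 points (exact permutation test, two-sided, with labels exchanged inside each genotype and exposure; adjusted p = 0.000125, and 1.25e-05 is the smallest unadjusted p it can give). The difference was 10.4, 21.3 and 31.4 points within sets 1, 2 and 3, of which set 1 holds 1 exposure only. In sets 2 and 3 it was 14.1 and 24.3 points with 1 exposure and 28.5 and 34.6 points with 3. After 3 exposures the share was 57.8% ± 3.66 against 42.1% ± 5.59 after 1 (SD, n = 6 each), 15.7 points higher (exact permutation test, adjusted p = 0.02), with 15.9 and 12 points within sets 2 and 3. MGMT-transfected cells under TMZ were 4.73 points below WT cells, with the MGMT library lower in 6 of 6 same-numbered pairs and differences of -3.91, -7.64 and -3.06 points within sets 1, 2 and 3. Same-numbered WT and MGMT libraries under TMZ deviated together. This difference passed the exact sign-flip test of those pairs (adjusted p = 0.0469; 0.0312 is the smallest unadjusted p it can give) and did not pass the exact permutation test without pairs (adjusted p = 0.175). Naked DNA was 16.0 points above TMZ cells (exact permutation test, adjusted p = 0.0355), and 24.7 points above within set 1. With each replicate number left out this last difference stayed at 15.1 to 17.5 points. Its adjusted p then missed the threshold (up to 0.185), but with 2 naked DNA libraries the smallest unadjusted p of the exact permutation test is 0.0222, so this says little about stability. On chromosomes 1 to 22, X and Y the G share was 50.1% ± 11.2 in TMZ cells, 21.5% ± 3.93 under solvent and 68.2% ± 1.43 in naked DNA. There too it ran higher after 3 exposures to TMZ (51.9% to 63.3%) than after 1 (32.2% to 51.9%). The contig share was above that of the chromosomes by 1.22 to 5.71 points in every solvent library, differed by -2.65 to 4.18 points in TMZ cells, and lay 0.81 to 4.75 points below it in naked DNA.

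**Figure D1:**
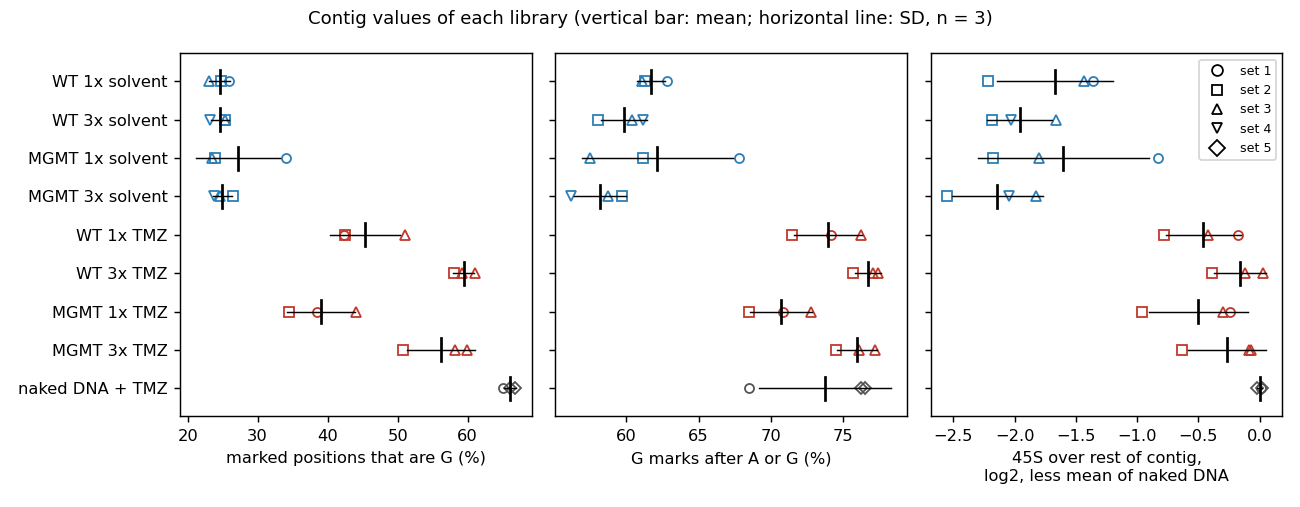
Contig values of each library for the 9 groups: percent of marked positions that are G (left), percent of marked G that follow A or G (middle) and the log2 ratio of marked G in the 45S unit over the rest of the contig, less the mean of naked DNA (right). Symbols are libraries, their shape is the set, vertical bars are means and horizontal lines are SD (n = 3). In the left panel all TMZ cell libraries (34.5% to 61.0%) lie to the right of all solvent libraries (23.1% to 34.0%) and left of naked DNA.

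The base before a marked G also differed between TMZ and solvent cells. A or G preceded 68.5% to 77.4% of marked G in TMZ cell libraries (median 75.1%), 56.2% to 67.8% in solvent libraries (median 60.7%) and 68.5%, 76.2% and 76.5% in naked DNA. TMZ and solvent libraries did not overlap, and naked DNA replicates 2 and 3 lay within the range of TMZ cells. Means were 74.3% ± 2.87 and 60.5% ± 2.98 (SD, n = 12 each), a difference of 13.9 points (exact permutation test, adjusted p = 0.000125), and 7.20, 12.5 and 16.7 points within sets 1, 2 and 3. After 3 exposures the share was 4.00 points higher than after 1 (exact permutation test, adjusted p = 0.0333), with 5.08 and 2.45 points within sets 2 and 3. With a score of 30 or more neither passed (17.4 points for TMZ against solvent and 6.47 for 3 against 1 exposures; exact permutation test, adjusted p = 0.129 and 0.354). With a score of 2 or more, TMZ against solvent passed (17.5 points, exact permutation adjusted p = 0.0022) and 3 against 1 exposures did not (5.58 points, adjusted p = 0.285). The MGMT difference was -2.01 points (exact permutation test, adjusted p = 0.173), and -3.30, -2.07 and -1.53 points within sets 1, 2 and 3. Naked DNA differed from TMZ cells by -0.58 points (exact permutation test, adjusted p = 0.867) and by -4.00 points within set 1. Naked DNA replicate 1, the lowest of the 3, listed 35.8% of all known G positions of the contig, against 17.5% and 19.1% in the other two; the part of this in its lower share was not tested.

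By single base, G preceded 39.5% ± 4.89 of marked G in TMZ cells, 22.4% ± 4.17 under solvent and 43.6% ± 2.46 in naked DNA, where 33.2% of known G positions follow a G. A preceded 34.8% ± 2.47, 38.1% ± 2.53 and 30.1% ± 2.11, and T preceded 12% ± 2.23, 22% ± 2.52 and 11.8% ± 2.95 (SD, n = 12, 12 and 3). C preceded 13.7% ± 1.18, 17.5% ± 1.65 and 14.5% ± 1.62, where 25.3% of known G positions follow a C. On average marks after G took a larger share and marks after T a smaller share in TMZ cells than under solvent, and C was the base whose share lay furthest below that of known positions in TMZ cells. The neighbour was known for 85.4% to 94.7% of marked G per library.

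Marked G recurred at the same positions of the contig. Of 22855 G positions listed by any TMZ cell library, 11161 were listed by 1 library and 75 by 10 or more. No position was listed by 10 or more solvent libraries, and the most was 9. TMZ cell libraries held 2257 to 6017 marked G and solvent libraries 546 to 2608, so recurrence is not compared at equal depth. Of the 75 positions, 37 follow an A, 36 a G, 1 a C and 1 a T. Naked DNA listed 71 of them in at least 2 of 3 libraries and 49 in all 3. Of the 29944 G positions marked by any library, it listed 1300 in all 3. Of the 75 positions, 32 were in no solvent library. The 75 lay in the downstream spacer (54), the 28S gene (8), the upstream spacer (6), the second 45S copy (4) and, with 1 each, the 5′ external spacer, the 18S gene and the first internal spacer. These counts are not scaled to the length or the marks of a region. The downstream spacer is the longest of them and held more marked G per kb than the 45S unit in TMZ cells. The first copy held 11 and the shorter second copy 4, though their reads cannot be told apart. Across 5125 pairs of the same base in both copies with a mark in TMZ cells, the numbers of libraries had Pearson r = 0.59 (pairs share reads and are not independent). Of 105 positions of the first copy listed by 6 or more TMZ cell libraries, 102 had a partner listed by at least 3.

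**Figure D2:**
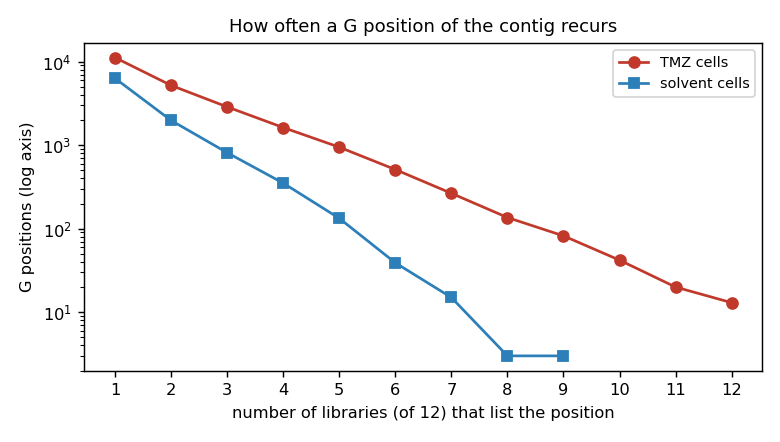
Number of G positions of the contig (y, log axis) by the number of libraries that listed them (x, of 12), for TMZ cells and solvent cells. The TMZ curve reaches 13 positions at 12 libraries, and the solvent curve ends at 3 positions at 9 libraries.

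Density is given as marked G positions per 1000000 marked G positions on chromosomes 1 to 22, X and Y of the same library, called scaled marked G. For the whole contig it was 1951, 2414 and 1350 in WT 1x solvent libraries, 2861, 1497 and 1636 in WT 3x solvent, 1477, 2574 and 1632 in MGMT 1x solvent and 2304, 1700 and 1719 in MGMT 3x solvent. Under TMZ it was 2069, 1743 and 1126 in WT 1x, 1104, 899.5 and 1022 in WT 3x, 2168, 2366 and 1383 in MGMT 1x and 1207, 927.1 and 1365 in MGMT 3x. Naked DNA had 1162, 1014 and 973.3. Naked DNA, 5 of the 6 libraries with 3 exposures to TMZ and WT 1x TMZ replicate 3 lay below all solvent libraries, and the other TMZ libraries lay within the solvent range. On the log2 scale TMZ cells were lower than solvent cells by 0.45 over both exposures (exact permutation test, adjusted p = 0.0355). The difference was -0.82 with 3 exposures and -0.08 with 1, and these 2 effects did not pass a test of their difference (-0.75; exact permutation test, adjusted p = 0.0952). A position is listed once however often it was read, and the libraries listed 6.40% to 17.0% (TMZ cells), 1.55% to 7.39% (solvent) and 17.5% to 35.8% (naked DNA) of the known G positions. Corrected for such saturation the difference was -0.39 (exact permutation test, adjusted p = 0.0707), and it also missed the threshold with each replicate number left out (-0.48 to -0.40, largest adjusted p = 0.256). Within sets it was 0.32 in set 1, -0.72 in set 2 and -0.48 in set 3. Its sign thus turned in set 1. Contig G over contig positions at A, C and T holds no chromosome count and restates the G share. That ratio was higher in TMZ cells (log2 difference 1.56, exact permutation test, adjusted p = 8.3e-05). After 3 exposures density was lower than after 1 by 0.70 (exact permutation test, adjusted p = 0.02). Contig G over contig A, C and T was higher (0.92, exact permutation test, adjusted p = 0.0167). Contig positions at A, C and T, scaled to chromosome positions at A, C and T, also ran lower after 3 exposures. On the log2 scale they ran from 9.92 to 10.50 after 3 exposures to TMZ and from 10.19 to 11.06 after 1. This was not tested, and the lower density is not shown to be particular to G. The density difference was -0.82 and -0.26 within sets 2 and 3. The share of chromosome positions with a score of 0 or 1 moved with it: it was 27.3%, 15.3% and 8.07% in WT 1x TMZ libraries and 32.6%, 18.5% and 9.29% in MGMT 1x TMZ, against 7.08% to 9.50% in the 6 libraries with 3 exposures to TMZ. Among solvent libraries it ran from 8.42% to 44.4%. With only positions of score 2 or more, on the contig and the chromosomes, the density difference between exposures was -0.39 (exact permutation test, adjusted p = 0.03). With a score of 30 or more it was -0.64 (exact permutation test, adjusted p = 0.036). TMZ cell libraries then held only 69 to 345 and 16 to 65 marked G on the contig. A score of 0 or 1 was more frequent in the ribosomal repeat than outside it, so these filters also change which part of the contig is measured. They therefore cannot tell whether density in the repeat itself was lower. MGMT cells were 0.23 above WT cells, higher in 6 of 6 same-numbered pairs and by 0.07, 0.29 and 0.25 within sets 1, 2 and 3. This passed the exact sign-flip test of pairs (adjusted p = 0.0469) and did not pass the exact permutation test without pairs (adjusted p = 0.327). Contig G over contig A, C and T was lower in MGMT cells (-0.28). Naked DNA differed from TMZ cells by -0.39, which did not pass the exact permutation test (adjusted p = 0.305), and by -0.87 within set 1. Contig G over contig A, C and T was higher in naked DNA (0.96, exact permutation test, adjusted p = 0.0275).

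Along the contig, the 45S unit and the spacers behaved differently. Per kb, the 45S unit held 15.5 ± 1.58 scaled marked G in naked DNA (SD, n = 3), 17.3 ± 5.55 in TMZ cells and 9.20 ± 2.19 under solvent (SD, n = 12). The downstream spacer held 17.0 ± 1.70, 27.1 ± 11.5 and 47.1 ± 14.1, and the upstream spacer 16.6 ± 1.79, 26.8 ± 9.54 and 44.0 ± 11.7. Per kb, the means of naked DNA were thus close in the 3 regions, while solvent libraries were low in the 45S unit and high in the spacers. TMZ cells were in between in the spacers. Relative to naked DNA on the log2 scale, the 45S unit stood at 0.10 ± 0.42 in TMZ cells and -0.79 ± 0.32 under solvent, and the downstream spacer at 0.57 ± 0.58 and 1.42 ± 0.42. The 45S unit has 76.9% G and C among its known bases and the downstream spacer 53.5%. A similar density per kb is therefore not a similar density per G that could be marked. Marks at A, C and T were not compared between these regions.

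**Figure D3:**
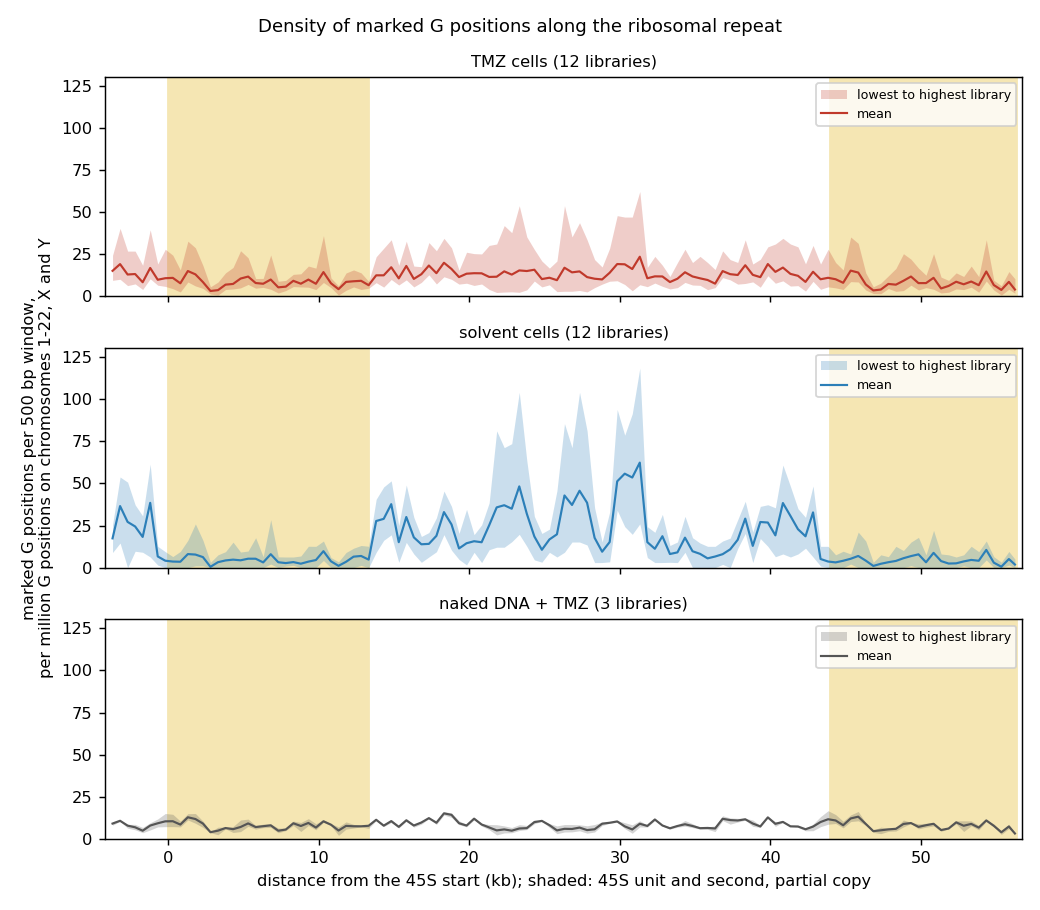
Marked G positions per 500 bp window, per 1000000 marked G on chromosomes 1 to 22, X and Y (y), against distance from the start of the 45S unit (x, kb) over the ribosomal windows, for TMZ cells, solvent cells and naked DNA. Lines are means and bands run from the lowest to the highest library, and shading marks the 45S unit and its partial copy. Solvent cells are low in the shaded units and high in the spacer, with a highest mean of 62.4 per window, while the mean of naked DNA stays between 3.15 and 15.1.

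The ratio of marked G in the 45S unit over the rest of the contig, taken relative to naked DNA, ran from -0.96 to 0.03 on the log2 scale in TMZ cell libraries (median -0.27) and from -2.55 to -0.83 in solvent libraries (median -1.93). The rest includes the second 45S copy, which shares reads with the unit, so the ratio does not set the unit against spacer alone. Most TMZ libraries lay above all solvent libraries, and the groups overlapped only through the lowest TMZ library (MGMT 1x, replicate 2) and the highest solvent library (MGMT 1x, replicate 1). The means were -0.35 ± 0.31 and -1.84 ± 0.47 (SD, n = 12 each), 1.5 apart (exact permutation test, adjusted p = 0.000167). The difference was 0.89, 1.59 and 1.52 within sets 1, 2 and 3. The ratio did not pass the exact permutation test for 3 against 1 exposures (0.27, adjusted p = 0.246), and this value was 0.36 and 0.30 within sets 2 and 3. It rested on the replicates used: it was 0.01 without replicate 2 and 0.55 without replicate 1, where 0.0556 is the smallest unadjusted p of the exact permutation test. MGMT against WT (-0.07, adjusted p = 0.788) and naked DNA against TMZ cells (0.35, adjusted p = 0.132) did not pass the exact permutation test either. They were -0.06, -0.21 and 0.02 within sets 1, 2 and 3 for MGMT and 0.22 within set 1 for naked DNA. Solvent libraries held 31 to 131 marked G in the 45S unit, TMZ cell libraries 315 to 1210 and naked DNA 1231 to 2507. The ratio was not tested for marked positions at A, C and T, so its difference is not shown to be particular to G. In WT 3x replicate 1 the unit held 1071 positions of any base under TMZ, 730 of them G, and 177 under solvent, 58 of them G. The whole contig held 3348 and 3326 positions at A, C and T in these libraries, so those marks also shifted towards the unit.

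Within the 45S unit, the mean density of TMZ cells was between 14.8 and 18.8 in the 5 longer parts named here. The 5′ external spacer, which is removed from the precursor, held 17.9 ± 7.39 scaled marked G per kb in TMZ cells, 9.24 ± 4.21 under solvent and 17.5 ± 2.40 in naked DNA. The 18S gene, which encodes the RNA of the small ribosomal subunit, held 18.8 ± 10.0, 9.37 ± 3.08 and 14.0 ± 4.07. The 28S gene, the main RNA of the large subunit, held 17.9 ± 4.33, 9.0 ± 1.51 and 16.1 ± 0.79. The internal spacers held 15.6 ± 3.42 (first) and 14.8 ± 6.22 (second) in TMZ cells. The 5.8S gene is only 157 bp long and had 52 marked G in the 12 TMZ libraries together, 6 in the solvent libraries and 41 in naked DNA, too few to compare. Solvent cells held 8.39 ± 5.60 and 10.5 ± 8.13 in these spacers and naked DNA 14.5 ± 1.95 and 11.7 ± 1.31, so the solvent mean was the lowest of the 3 kinds in each of the 5 parts.

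In the 45S unit the G share was 62.5% ± 8.0 in TMZ cells, 34.0% ± 6.99 under solvent and 74.1% ± 2.25 in naked DNA. In the downstream spacer it was 45.4% ± 9.02, 24.5% ± 2.24 and 61.3% ± 2.34 (SD, n = 12, 12 and 3). The 45S unit had the higher G share in all 3 kinds of library, and G is also the more frequent base there.

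Single windows were tested with limma over 1393 windows of the whole genome that held enough marked G, 117 of them on the contig, all in the repeat; 4 ribosomal windows and all 203 others were too sparse. Between TMZ and solvent cells 78 contig windows passed (limma, adjusted p at or below 0.05), 35 higher and 43 lower in TMZ cells, where 63.7% of all windows tested passed, 14.2% higher and 49.5% lower. The median log2 difference was 0.03 over the contig windows and -0.52 over all windows. Of 26 windows of the 45S unit 16 were higher and 0 lower, and of 22 windows of the second copy 14 were higher and 0 lower. Of 61 downstream spacer windows 4 were higher and 38 lower, and of 8 upstream ones 1 was higher and 5 were lower. Windows of both copies share reads. The 1393 windows are not a background apart from the contig. The 45S copies of chromosome 21 held about as many marked G, from reads that cannot be told apart. At a score of 30 or more only 51 windows held enough marked G, 0 of them on the contig. The shares over all windows tested, here and below, thus rest mostly on positions of lower score. Without replicate 2 the split was 21 higher and 32 lower. With libraries scaled by a trimmed mean of log ratios instead, which moves the median of all windows to 0.11, the contig windows split into 68 higher and 27 lower. The 45S unit then had 25 higher and 0 lower windows, the second copy 22 and 0, and the downstream spacer 19 higher and 24 lower, with its median moving from -0.69 to -0.07.

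**Figure D4:**
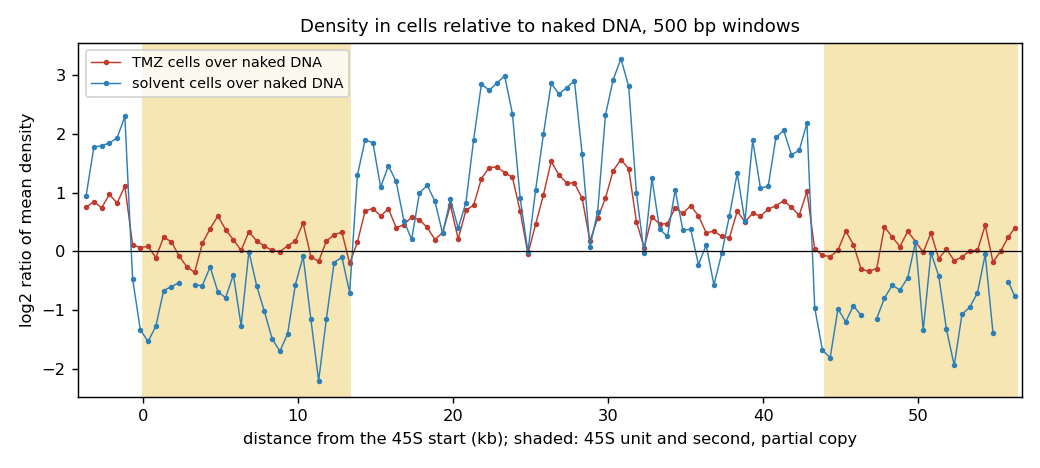
Log2 ratio of the mean density in TMZ cells and in solvent cells over that in naked DNA (y), against distance from the start of the 45S unit (x, kb). A ratio is drawn for each 500 bp window with at least 10 marked G in the cells concerned and in naked DNA. Shading marks the 45S unit and its partial copy. In the 45S unit all 26 windows of solvent cells with a ratio lie below 0 (-2.20 to -0.00), and in the downstream spacer 54 of 61 lie above 0, up to 3.27.

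The ratio to naked DNA fell before the start of each 45S copy. Under solvent, the last high window on the upstream side, 104001 to 104500, stood at 2.29 on the log2 scale, and the next 2 windows, the second of which holds the 45S start, at -0.47 and -1.33. TMZ cells stood at 1.11 there and at 0.11 and 0.07 in the next 2 windows. In the spacer before the second copy the same places (148001, 148501 and 149001) stood at 2.18, -0.95 and -1.68 under solvent and at 1.02, 0.04 and -0.06 in TMZ cells. At the downstream end of the first copy, window 118501, which holds the end of the 45S unit, stood at -0.70 under solvent and -0.20 in TMZ cells. The next 2 windows, 119001 and 119501, stood at 1.29 and 1.89 under solvent and at 0.15 and 0.69 in TMZ cells. The GC content of a window's known bases had Pearson r = -0.79 with the solvent ratio over 113 windows and r = -0.78 with the TMZ ratio over 121. These are descriptions, since windows share libraries, depth and, between the copies, reads. The solvent ratio was highest in 3 blocks of the downstream spacer, singled out after their values were seen, at 127001 to 129000, 131501 to 133500 and 135001 to 137000. Its largest value was that of window 136001, at 3.27, where solvent libraries ran from 19.8 to 91.4 scaled marked G, TMZ cells from 3.41 to 47.2 and the naked DNA mean was 5.54.

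Only window 150501 to 151000, in the 5′ external spacer of the second copy, both passed the test and had groups that did not overlap between TMZ and solvent cells. That is 1 of 117 contig windows, where 1.15% of all windows tested had no overlap, so the contig does not exceed that share. No window of the first copy, whose reads cannot be told apart from these, met both rules. TMZ cell libraries held 35.3, 12.7 and 8.94 scaled marked G in WT 1x, 8.84, 9.61 and 11.9 in WT 3x, 33.3, 16.8 and 12.9 in MGMT 1x and 9.55, 9.16 and 15.4 in MGMT 3x. Solvent libraries held 2.13 to 8.12 (n = 12), from only 1 to 7 marked G each, and naked DNA 14.2, 11.8 and 10.2. Every TMZ library was above every solvent library, and naked DNA was within the range of TMZ cells. The log2 difference was 1.23 ± 0.27 (SE; limma, adjusted p = 0.000262).

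After 3 TMZ exposures 58 contig windows were lower than after 1 and 0 were higher (limma, adjusted p at or below 0.05), where 60.4% of all windows tested were lower and 0% higher. Of these, 44 were in the downstream spacer, 5 upstream, 5 in the 45S unit and 4 in the second copy. Without replicate 2 no window passed (10 contig windows had an unadjusted p under 0.05), and with the trimmed mean of log ratios 5 were higher and 0 lower. With the set as a block 47 passed: 40 in the downstream spacer, 6 upstream, 1 in the 45S unit and 0 in the second copy. The medians of the 2 copies were then -0.25 and -0.14, against -0.46 and -0.41 without the block. With limma-trend 35, 4, 0 and 1 passed in these 4 regions. In 7 contig windows the exposures did not overlap, where 10.4% of all windows tested did not. The 3 with the largest change were 102001, 121501 and 138501, all in the spacers. Window 102001 held 23.8, 20.5 and 21.1 scaled marked G in WT 1x and 28.1, 40.4 and 20.2 in MGMT 1x, against 12.7, 10.2 and 11.2 in WT 3x and 15.8, 10.3 and 16.5 in MGMT 3x. All 6 libraries with 1 exposure were above all 6 with 3, and the solvent libraries held 14.6 to 53.8. The log2 difference was -1.0 ± 0.25 (SE; limma, adjusted p = 0.00227). Windows 121501 and 138501 differed by -0.95 ± 0.26 (limma, adjusted p = 0.00438) and -0.75 ± 0.26 (limma, adjusted p = 0.0154). The median difference was -0.64 over the contig windows and -0.76 over all windows tested. Window 138501 thus changed no more than windows in general, and its sign turned with the trimmed mean of log ratios.

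MGMT-transfected and WT cells under TMZ differed in 0 of 117 contig windows (limma, adjusted p at or below 0.05), where 0.0718% of all windows tested passed; 3 contig windows had an unadjusted p under 0.05, and limma-trend also called 0 on the contig. The contig median was 0.24 and that of all windows 0.27, and with the trimmed mean of log ratios -0.02 and 0.0060, so the direction depends on the scaling. With the replicate number as a block 0 contig windows passed, and with the set as a block 1 did, higher in MGMT cells, as did 113 of the 1393 windows. On simulated data with 1393 windows this comparison recovered 49.5% of 2-fold and 99.5% of 4-fold changes. Those counts were drawn with the same relative spread in every window and no difference between sets. They therefore do not give the share of real changes that could be found here.

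Naked DNA was lower than TMZ cells in 5 contig windows and higher in 0 (limma, adjusted p at or below 0.05), where 11.3% of all windows tested were lower. Of the 5, 3 were in the upstream and 2 in the downstream spacer, and no window of either 45S copy passed. With the set as a block, set 5 takes up naked DNA replicates 2 and 3, and the difference rests on replicate 1 alone. The medians of the 45S unit and the second copy were then -0.41 and -0.46, against -0.06 and 0.03 without the block. As 1 library cannot show a spread, no conclusion is drawn from the number of windows that passed in that fit. No window passed with any replicate number left out. The contig median then stayed at -0.30, -0.30 and -0.33 (without replicates 1, 2 and 3), against -0.29 with all. The trimmed mean of log ratios gave 2 higher and 0 lower. The groups did not overlap in 3 of 117 contig windows, where 1.36% of all windows tested had no overlap. Of these, window 122501 did not pass (-0.50 ± 0.22; limma, adjusted p = 0.0984), and windows 104001 and 148001, which are the same place of the repeat before the first and the second 45S copy, did. Window 104001 held 5.25, 9.53 and 8.79 scaled marked G in naked DNA and 10.5 to 39.6 in TMZ cells (median 16.4), and solvent cells ran from 6.32 to 61.4 (median 39.6). Window 148001 held 4.79, 8.71 and 8.21 in naked DNA, 9.0 to 30.3 in TMZ cells (median 13.7) and 6.32 to 48.5 in solvent cells (median 37.2). The log2 differences were -1.07 ± 0.35 and -1.02 ± 0.32 (SE; limma, adjusted p = 0.0467 and 0.0439). With each replicate number left out they ran from -1.18 to -0.86 and from -1.16 to -0.74. The stretches given for both windows hold long runs of C and T on the plus strand. In these windows 18.8% and 24.2% of the marked G of TMZ cells were on the plus strand, and 5.26% and 6.92% under solvent.

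In naked DNA the densest windows were 123501, 124001 and 151001. Window 123501 held 15.1, 16.1 and 14.1 scaled marked G in naked DNA, 124001 held 15.4, 14.6 and 12.7, and 151001 held 16.2, 10.7 and 12.5. The 3 replicates were close in the first 2 windows. TMZ cells had means of 20.04, 16.4 and 14.2 and solvent cells 33, 25.7 and 6.93, so the 2 spacer windows were denser in solvent cells and the 5′ external spacer window of the second copy was sparser. The windows with the fewest, 82001, 89001 and 501, lay outside the repeat with 0, 0 and 1 marked G in naked DNA.

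The marks favoured 1 strand in some places. In the 45S unit 49.9% to 56.1% of marked G were on the plus strand in TMZ cell libraries (mean 53.0% ± 1.76, n = 12), 32.2% to 58.9% in solvent libraries (mean 46.6% ± 7.90, n = 12) and 50.2%, 53.5% and 53.1% in naked DNA. TMZ and naked DNA libraries lay near the 51.0% of known G positions on that strand, and solvent libraries, with 31 to 131 marks each, scattered over a wider range on both sides. TMZ cells were 6.41 points above solvent (exact permutation test, adjusted p = 0.0355). The difference was -2.92, 13.4 and 4.75 points within sets 1, 2 and 3, so it turned in set 1, and it missed the threshold with each replicate number left out (2.91 to 8.37 points, largest exact permutation adjusted p = 0.417). No other comparison of the strand share passed the exact permutation test (0.21 points lower after 3 exposures, adjusted p = 0.884; 0.02 points lower in MGMT cells, adjusted p = 0.98; 0.77 points lower in naked DNA, adjusted p = 0.64). Within sets these had no common sign for 3 against 1 exposures (-1.43 and 1.63 points in sets 2 and 3) or for MGMT (-3.87, 1.25 and 0.42 points in sets 1, 2 and 3), and naked DNA was at -3.98 points in set 1.

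By window the strand share varied far more than between groups. It ran from 10.0% to 78.5% of marked G on the plus strand in TMZ cells over the 121 ribosomal windows, and the shares of TMZ cells and naked DNA had Pearson r = 0.88 and Spearman rho = 0.88 over these windows. The share of known G positions on the plus strand had r = 0.76 with that of TMZ cells and r = 0.61 with that of naked DNA. In the downstream spacer 17 of 61 windows had under 30% on the plus strand in TMZ cells and 5 in naked DNA. The median difference of TMZ cells from naked DNA was -3.33 points, and TMZ cells were more than 10 points below naked DNA in 21 windows and more than 10 points above in 7. Naked DNA sites were summed over replicates here, and replicate 1 held the most. Without it the median difference was 0.25 points, with 10 windows more than 10 points below and 8 above, r was 0.92, and 14 downstream spacer windows of naked DNA had under 30%, an alternative chosen after seeing the data. Over the whole downstream spacer, 40.3% of marked G were on the plus strand in TMZ cells and 39.5% under solvent, against 41.4% of known G positions. Naked DNA had 49.98%, 43.1% and 42.8% in replicates 1, 2 and 3, against 38.1% to 42.8% in TMZ cell libraries, so replicate 1 stood apart, replicate 2 lay just above all TMZ cell libraries and replicate 3 within their range.

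**Figure D5:**
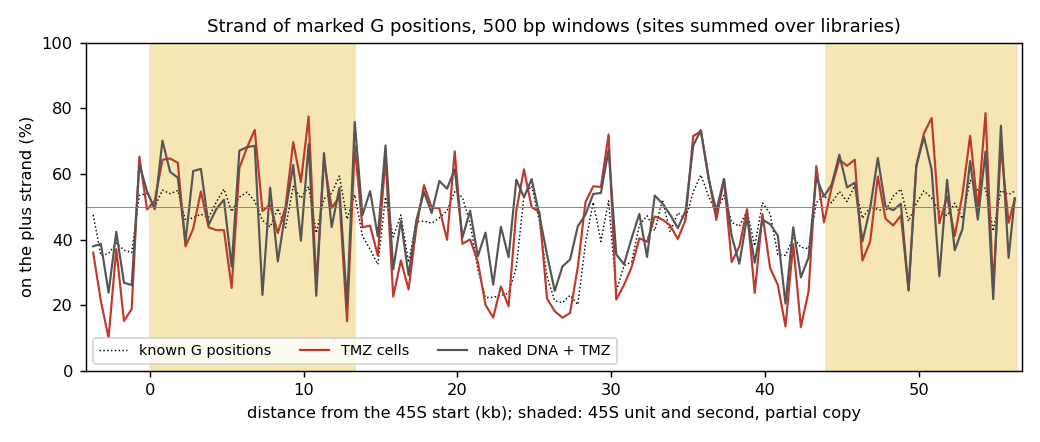
Percent of marked G on the plus strand (y) in each 500 bp window against distance from the start of the 45S unit (x, kb), for TMZ cells and naked DNA with sites summed over libraries, and for known G positions (dotted). Shading marks the 45S unit and its partial copy. The 2 curves follow each other (r = 0.88 over 121 windows) and dip together in the upstream spacer and in blocks of the downstream spacer.

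Outside the repeat, positions 1 to 101500 held few marks. All 203 windows together held 102 to 374 marked G per TMZ cell library (median 219.5), 16 to 107 per solvent library (median 42.5) and 333, 389 and 762 in naked DNA. Scaled and per kb this was 0.717 ± 0.154, 0.783 ± 0.215 and 0.594 ± 0.0845 (SD, n = 12, 12 and 3), far below the spacers in each kind of library, and the spreads overlapped. The G share was 51.6% ± 10.6 in TMZ cells, 21.1% ± 4.88 under solvent and 68.1% ± 2.37 in naked DNA. Here 69.8% of positions had a score of 0 or 1, against 99.7% in the 45S unit and 94.5% in the downstream spacer.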

How the data were processed

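O6-MeG-seq libraries of 24 LN-229 cell cultures and 3 naked DNA samples were used. Per the labels' protocols, sheared DNA was enriched by immunoprecipitation, polymerase stalling marked the site, and unwanted fragments were removed by subtractive hybridisation. Per the submitters' processing notes, FastQC 0.11.9, Trimmomatic 0.38 and 0.39, cutadapt, Bowtie2 2.3.5.1, GATK 4.2.0.0, SAMtools 1.12 and bedtools 2.29.2 were used with GRCh38; their order and settings are not given in the sources used here. The deposited lists give 1 line per marked position with strand, base and a score from 0 to 42, whose definition is not stated, and hold no read counts. Libraries listed 1347019 to 15745885 positions, and their number limits precision. All scores were kept.

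Bases of the contig were read from the lists (57653 positions, 0 disagreements in 136393 repeats). Marked G were scaled to marked G on chromosomes 1 to 22, X and Y. The 5 measures were compared in 4 ways with exact two-sided permutation tests of libraries within the other factors, and the 20 p-values were adjusted together (Benjamini-Hochberg). Libraries were joined into sets where a pair shared non-G autosomal positions scored 30 or more, relative to the lengths of both lists, at over 1.6 times the median of all pairs, a limit chosen after the values were seen. Windows of 500 bp with at least 10 marked G in 3 libraries and a mean of 10 were tested over the whole genome with limma-voom (limma 3.58.1, R 4.3.3) on 9 group means. The minimum mean was added after a test on simulated data, where without it 70 of 159 calls between TMZ and solvent were false for 2-fold changes, against 5 of 148 with it (1393 windows, 71.5% of changed windows recovered). The simulated libraries were independent, with the same relative spread in every window and no difference between sets, unlike the real ones. Other steps used Python 3.11.15, numpy 2.4.6, scipy 1.17.1 and pandas 2.3.3. Named windows were the 3 with most and the 3 with fewest marked G in naked DNA, and up to 3 per direction and comparison that passed with groups that did not overlap. Alternatives covered score, window size, filter, scaling, saturation, replicate block, sets and left-out replicates. The members and lists were chosen with earlier results of these data known.

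Same-numbered WT and MGMT libraries deviated together (correlation of deviations over 0.1) in 6 of 6 pairs under TMZ (0.19 to 0.66) and 4 of 6 under solvent, TMZ and solvent libraries in 11 of 12 pairs (lowest 0.098), and 1x and 3x in 2 of 6. The numbers were therefore taken to pair WT and MGMT libraries under TMZ, by this check and not by the labels, and not for the other comparisons, where not every pair was over 0.1.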

Additional observations from a re-analysis of the deposited data

Results flagged for a closer look

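The effect of TMZ against solvent differed between the exposures in 2 measures, by an exact permutation test of the difference of effects (10 such tests, Benjamini-Hochberg adjusted). The G share of contig positions rose by 33.1 points with 3 exposures and by 16.3 points with 1, a difference of 16.8 points (exact permutation test, adjusted p = 0.00981). Set 2 alone gave 14.3 points and set 3 alone 10.3.

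The share of marked G that follow A or G rose by 17.3 points with 3 exposures and 10.4 points with 1, a difference of 6.90 points (exact permutation test, adjusted p = 0.00863). Set 2 alone gave 7.41 points and set 3 alone 2.19. In both measures the difference kept its direction in both sets, with 2 to 4 libraries per group. These tests were added after the data were seen. The same test did not pass for the 45S unit over the rest of the contig (0.68 on the log2 scale, exact permutation adjusted p = 0.0952) or for the density of the contig (-0.75, adjusted p = 0.0952), and none of the 5 differences between genotypes passed.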

How the results depend on the processing

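Over the comparisons of single measures and counts of windows, 97 of 128 values under other settings stayed the same (without the left-out replicates). For a measure this means the same direction and side of the threshold. For a count of windows it means a number close to that of the main setting, without a turned direction. Contig G over contig A, C and T holds no chromosome count and restates the G share. Its differences had the opposite sign to all 4 density differences. They were 1.56 for TMZ against solvent, 0.92 for 3 against 1 exposures, -0.28 for MGMT against WT and 0.96 for naked DNA against TMZ cells. All but MGMT passed. TMZ against solvent density was -0.39 with saturation correction and -0.21 for all contig positions over all positions, neither passing. At a score of 30 or more, MGMT against WT density was -0.00017, and the share after A or G differed by 17.4 points for TMZ against solvent and 6.47 for 3 against 1 exposures, neither passing, and by 0.75 for naked DNA, a turned sign. At a score of 2 or more, that share differed by 5.58 points for 3 against 1 exposures (not passing) and by 0.65 for naked DNA (turned), and with saturation correction naked DNA was at 0.40 (turned). Apart from contig G over contig A, C and T, the cause was not tested in any of these. Few contig positions have such scores (1.01% have 30 or more), no contig window could be tested there, and the 45S measures gave no value in some libraries.

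With the replicate number as a block (exact sign-flip test of pairs), MGMT against WT passed for the G share (-4.73) and density (0.23), adjusted p = 0.0469 each, and changed no other call; windows that differed numbered 78, 62 and 0 under the block.

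Windows of 1000 bp, which are fewer, gave 48 that differed between TMZ and solvent (23 higher, 25 lower), 37 between exposures and 0 for naked DNA. The trimmed mean of log ratios gave 68 higher and 27 lower, 5 higher between exposures and 2 higher for naked DNA, both turned in direction, as was window 138501 between exposures (0.054). For naked DNA, limma-trend, a minimum of 5 and no minimum mean gave 0, the square-root scale 36 and only the groups compared 10. The set as a block listed 14, but there the comparison rests on naked DNA replicate 1 alone. As 1 library cannot show a spread, that count cannot tell whether naked DNA differs. The set as a block gave 1 window for MGMT against WT. The minimum mean, square root and set block were chosen after seeing the data.

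With each replicate number left out in turn, exposures and genotypes cannot reach an adjusted p under the threshold in the exact permutation test (smallest p 0.0556). The values ran, for 3 against 1 exposures, from 12.5 to 18 points (G share), -1.01 to -0.48 (density), 2.62 to 4.71 points (after A or G), 0.01 to 0.55 (45S unit over the rest) and -1.38 to 0.73 points (strand, sign turned). They ran for TMZ against solvent from -0.48 to -0.40 (density) and 2.91 to 8.37 points (strand), for MGMT against WT from -0.87 to 0.85 points (strand, sign turned), and for naked DNA from 15.1 to 17.5 points (G share), -1.32 to 0.32 points (strand, sign turned) and -2.31 to 1.78 points (after A or G, sign turned). Windows that differed numbered 21 to 34 higher for TMZ against solvent, 0 to 77 between exposures and 0 to 0 for naked DNA; without replicate 2 none passed between exposures.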
